A study of Mus musculus with 8 samples.

Results

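The genes described here encode the steroid synthesis enzymes of the mouse ovary and the proteins that serve them: Star, Cyp11a1, Fdx1, Hsd3b1, Hsd3b6, Cyp17a1, Cyp19a1, Hsd17b1, Hsd17b7 and Srd5a1. They were chosen by name, as 10 of the 20145 gene symbols that the array covered, and 13 probes measured them. Total RNA of whole ovaries from 33-week-old cycling mice was hybridised, 1 sample to an array, to 8 one-colour microarrays. Ovarian neoplasia was represented by 5 arrays and wildtype ovary by 3. The neoplasia samples carried 1 cre allele of the progesterone receptor gene Pgr. They also carried 1 conditional copy of Pgr, preceded by a stop cassette that Cre removes. The genotype was written Pgrcre/+mPgrLsL/+ in the sample labels and Pgrcre/+PgrBLsL/+ in the series description, with each element over its own plus sign. The genotype of the other samples was labelled Wildtype. Cre came from the Pgr gene itself, so the conditional copy could be switched on wherever Pgr is or was expressed. The neoplasia samples also had 1 Pgr copy that carried cre. The labels do not say that the arrays came from separate animals, so p-values measure only the spread between these samples, which may be technical.

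Steroid hormones are made from cholesterol in a chain of reactions. Star brings cholesterol to the inner mitochondrial membrane, Cyp11a1 cuts off its side chain to give pregnenolone, and 3-beta-hydroxysteroid dehydrogenases turn pregnenolone into progesterone. In the follicle, theca cells carry the chain on to androgens through Cyp17a1, and granulosa cells turn androgens into oestrogens through Cyp19a1 and Hsd17b1; luteal cells mainly make progesterone.

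Values are given as relative signal, the background-subtracted signal of a probe divided by the 75th percentile of the signals of its own array, and differences as neoplasia minus wildtype on the log2 scale ± SE. A difference passed the test where limma's two-sided p, adjusted by the method of Benjamini and Hochberg over 25216 genes and unnamed transcripts, was under 0.05. Levels of different probes cannot be set against each other. Across the whole series, the 75th percentile was 307 to 426 intensity units on neoplasia arrays and 460 to 515 on wildtype arrays, and 29332 to 32920 probes in neoplasia and 33737 to 34147 in wildtype were well above background. The Pgr gene itself was measured by 2 probes that disagreed. Of these, 1 was higher in neoplasia by 9.13 ± 0.73 (limma adjusted p = 0.000132). The other was well above background on 0 of 5 neoplasia and 3 of 3 wildtype arrays. Its bound was at least 2.86-fold lower in neoplasia. Probes were kept where at least 3 arrays were well above background, so it passed through the wildtype arrays alone and had to differ. All 8 arrays were on 1 slide scanned once. Neoplasia 1 to 4 were in its first row and neoplasia 5 with the 3 wildtype samples in its second. With slide row as a block, or within the second row, a fit therefore compared neoplasia 5 alone with the wildtype samples. For these fits only log2 differences are given.

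Of the 10 genes, 8 were lower in neoplasia than in wildtype, 0 were higher and 2, Cyp17a1 and Fdx1, did not pass the test. For comparison, 13.4% of all features tested were lower and 17% were higher. With 1 wildtype sample left out these shares were 3.51% to 5.75% and 4.65% to 7.12%. With 1 neoplasia sample left out they were 10.4% to 17% and 11.5% to 22.9%. The median log2 difference of the 10 genes was -3.54, against 0.14 over all features. In 9 of the 10 genes every neoplasia array was below every wildtype array, a pattern held by 16% of all features; the exception was Cyp17a1. All 10 genes passed the filter on dim probes. Cyp19a1 passed it through the wildtype arrays alone and so had to differ. The filter required 3 arrays well above background, so Hsd3b6 and Hsd17b1, with 2 and 1 such neoplasia arrays, also depended on the wildtype arrays to pass. In whole tissue, fewer cells of a type and less RNA per cell cannot be told apart.

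**Figure D1:**
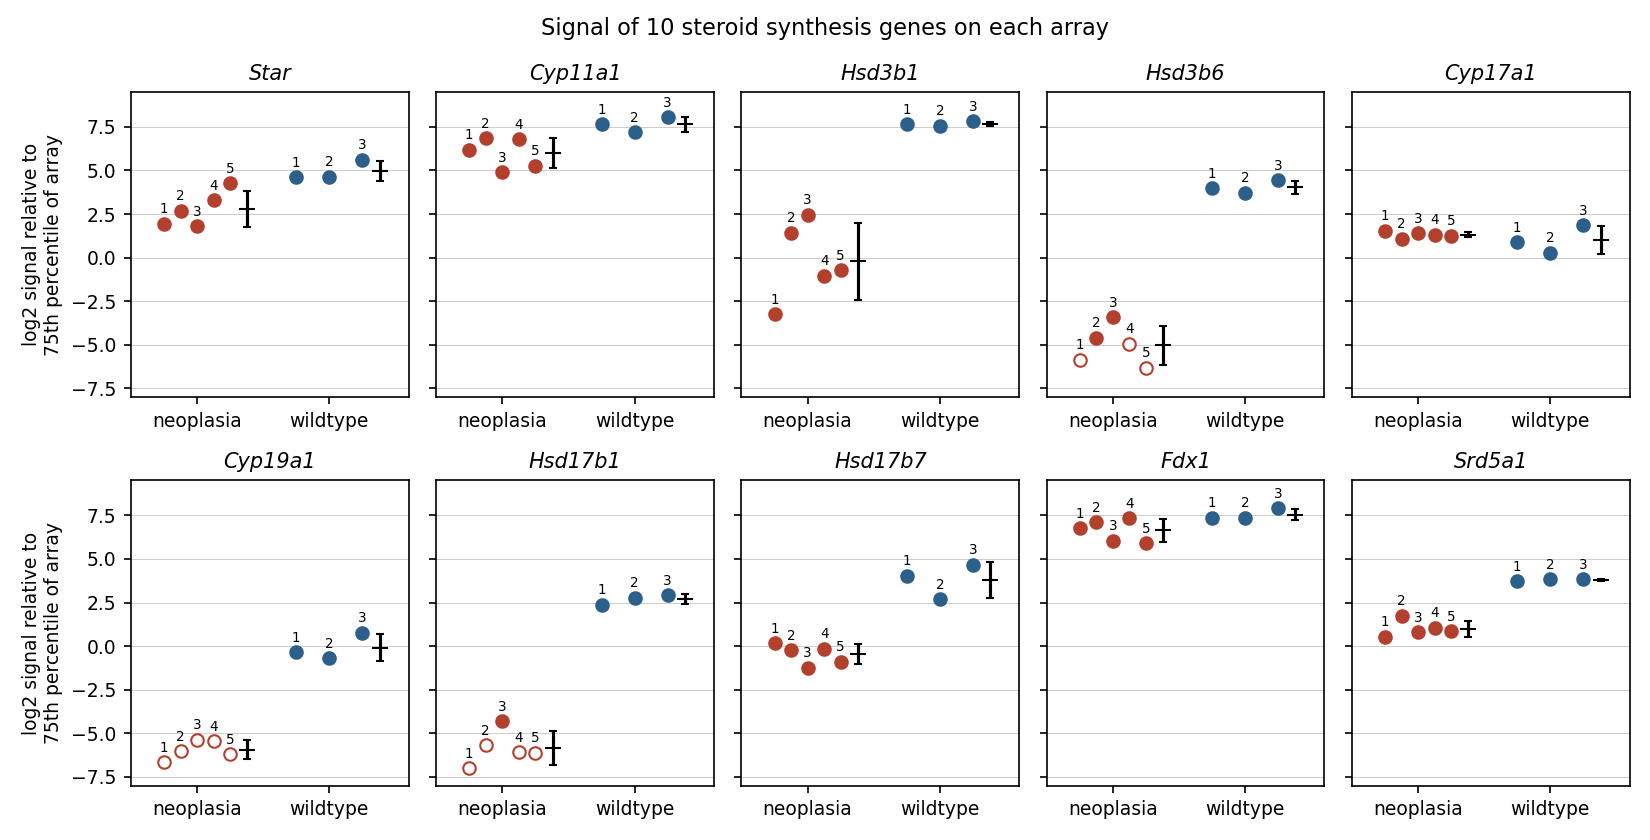
Relative signal on the log2 scale (vertical axis) of the 10 genes in each of the 5 neoplasia and 3 wildtype arrays, 1 panel a gene, with bars for the mean ± SD; filled points were well above background and open points were not. The groups overlap in the panel of Cyp17a1 and are apart in the other 9.

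Star, which controls how fast cholesterol enters mitochondria, had relative signals of 3.83, 6.45, 3.46, 9.89 and 19.4 in neoplasia 1 to 5, against 24.4, 25 and 49.5 in wildtype 1 to 3. Neoplasia 5 came close to the lower wildtype samples, and the other neoplasias lay well below. Star was lower in neoplasia by 2.16 ± 0.58 on the log2 scale (limma adjusted p = 0.0266), a 4.47-fold difference. A second Star probe had 1.14, 3.01, 1.06, 3.98 and 5.17 in neoplasia and 8.17, 9.99 and 14.7 in wildtype. It gave a log2 difference of -2.17 ± 0.57. The Star call was lost when wildtype 1, 2 or 3 was left out, with limma adjusted p-values of 0.0757 to 0.0975. With slide row as a block or within the second row, which both compared neoplasia 5 alone with wildtype, the log2 difference was -0.68.

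Cyp11a1, the side-chain cleavage enzyme, remained well above background on every array. Its relative signals were 72.5, 115, 29.9, 111 and 38.9 in neoplasia, against 202, 147 and 266 in wildtype. Neoplasia 2 and 4 were nearest to wildtype and neoplasia 3 was farthest from it. The difference of -1.64 ± 0.49 (limma adjusted p = 0.0382), or 3.11-fold, was the smallest among the 8 genes that passed. The call was lost without neoplasia 1, 3 or 5 (limma adjusted p of 0.0517 to 0.0574) and without any 1 wildtype sample (0.0830 to 0.126). With slide row as a block, for neoplasia 5 alone against wildtype, the log2 difference was -2.36.

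Fdx1, the ferredoxin that passes electrons to Cyp11a1, had 109, 139, 66.6, 163 and 59.4 in neoplasia, against 164, 165 and 241 in wildtype. Neoplasia 4 fell just short of the lowest wildtype sample. The log2 difference of -0.91 ± 0.37 did not pass (limma adjusted p = 0.0971). A second probe, at 95.4, 118, 47.2, 141 and 54.4 in neoplasia and 178, 171 and 284 in wildtype, gave -1.30 ± 0.41 and passed when every probe was tested separately (limma adjusted p = 0.0440). The partner of Fdx1, the ferredoxin reductase Fdxr, was lower in neoplasia by 2.29 ± 0.46 on the log2 scale (limma adjusted p = 0.00968); it was picked out after its values were seen, and its call was lost with slide row as a block (adjusted p = 0.0760).

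The promoter of Cyp11a1 is shown as the entry reaction of the chain, from RefSeq on build GRCm38.p6 (chr9:58014702-58015001, plus strand), 5′ to 3′. It is 1 of 2 windows for this gene in the table, each 300 bases long and reaching from 250 bases before a gene start to 50 after it. The capitals mark AGGTCA, a motif bound by many nuclear receptors, and TATAA, a core promoter motif. AGGTCA starts at position -28 from the gene start, and the overlapping TATAA matches start at 16 and 17, after it. The other window held neither of these motifs but 1 CCAAT and 1 TGACG.
Cyp11a1: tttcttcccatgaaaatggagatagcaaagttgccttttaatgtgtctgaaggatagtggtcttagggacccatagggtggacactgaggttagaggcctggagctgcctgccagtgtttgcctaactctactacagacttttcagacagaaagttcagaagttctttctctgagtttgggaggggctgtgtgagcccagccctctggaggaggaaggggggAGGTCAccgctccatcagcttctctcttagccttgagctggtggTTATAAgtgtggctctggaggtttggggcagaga

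Hsd3b1 and Hsd3b6 are 3-beta-hydroxysteroid dehydrogenases, the enzymes that give progesterone its keto group, and both were far lower in neoplasia. Hsd3b1 had relative signals of 0.107, 2.68, 5.55, 0.488 and 0.606 in neoplasia, against 201, 189 and 225 in wildtype. The 3 wildtype samples lay within 1.19-fold of each other, whereas the 5 neoplasias spanned 52.0-fold. Hsd3b1 was lower by 7.90 ± 1.14 on the log2 scale (limma adjusted p = 0.00248), or 238-fold. Hsd3b6 had 0.0173, 0.0417, 0.0930, 0.0330 and 0.0126 in neoplasia, of which only neoplasia 2 and 3 were well above background, against 15.7, 13.2 and 21.9 in wildtype. The difference was -9.07 ± 0.61 (limma adjusted p = 5.0e-05), or 537-fold with the dim neoplasia spots at their measured values. The 2 genes are close relatives in a multigene family, and cross-hybridisation between their probes was not tested, so the split of signal between them is uncertain. Neoplasia 3 had the highest level of both.

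Their promoter windows, shown because these differences were among the largest of the 10 genes, lie near each other on chromosome 3, minus strand, at chr3:98859745-98860044 for Hsd3b1 and chr3:98814394-98814693 for Hsd3b6 (GRCm38.p6, RefSeq). The capitals mark a CCAAT box; the Hsd3b6 window held no match to any motif searched.
Hsd3b1: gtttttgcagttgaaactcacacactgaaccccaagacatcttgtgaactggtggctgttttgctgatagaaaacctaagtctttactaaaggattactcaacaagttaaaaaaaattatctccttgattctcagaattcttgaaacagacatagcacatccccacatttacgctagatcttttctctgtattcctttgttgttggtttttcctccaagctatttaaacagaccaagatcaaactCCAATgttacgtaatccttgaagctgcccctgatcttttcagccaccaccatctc
Hsd3b6: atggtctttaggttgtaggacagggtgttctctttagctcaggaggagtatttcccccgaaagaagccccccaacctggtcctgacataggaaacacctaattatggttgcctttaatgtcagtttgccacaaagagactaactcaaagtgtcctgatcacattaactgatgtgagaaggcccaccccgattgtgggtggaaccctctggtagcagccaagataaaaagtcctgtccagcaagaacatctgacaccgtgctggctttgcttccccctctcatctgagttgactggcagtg

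Cyp17a1, the enzyme that converts progestins to androgens, differed from the rest. It had relative signals of 2.94, 2.14, 2.62, 2.49 and 2.40 in neoplasia, against 1.87, 1.23 and 3.60 in wildtype. The neoplasias lay inside the range of the wildtype samples and within 1.38-fold of each other, against 2.94-fold among the wildtype samples. The log2 difference was 0.31 ± 0.33 (limma adjusted p = 0.490). Its sign depended on the scaling, since it was -0.31 with spike-in scaling and -0.17 in the authors' deposited values, and it was -0.051 without wildtype 2. None of these passed the test.

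Among the enzymes that make oestrogens, Cyp19a1 (aromatase) was not well above background on any of the 5 neoplasia arrays, where its relative signals were 0.00997, 0.0155, 0.0242, 0.0230 and 0.0135. In wildtype it was 0.789, 0.621 and 1.71. It was at least 26.4-fold lower in neoplasia. For this bound each neoplasia array took the lowest signal that counted as well above background or the probe's own signal, whichever was higher. The wildtype mean was set against these. With normexp background correction the log2 difference of Cyp19a1 was -2.46. Hsd17b1, which reduces oestrone to oestradiol in granulosa cells, had 0.00775, 0.0195, 0.0505, 0.0146 and 0.0145 in neoplasia, against 5.23, 6.86 and 7.53 in wildtype. Only neoplasia 3 was well above background. The log2 difference was -8.53 ± 0.53 (limma adjusted p = 3.3e-05), or 370-fold at the measured values.

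Hsd17b7, which acts on oestrone and also in cholesterol synthesis, was measured on every array. It had 1.13, 0.860, 0.424, 0.897 and 0.537 in neoplasia, against 16.3, 6.43 and 25.7 in wildtype. Wildtype 2 was the lowest wildtype sample and still lay above every neoplasia. The difference was -4.27 ± 0.49 (limma adjusted p = 0.000851), or 19.2-fold. A second probe, at 0.224 to 0.748 in neoplasia and 3.80 to 12.6 in wildtype, gave a log2 difference of -4.36 ± 0.50. The Hsd17b7 promoter (chr1:169969156-169969455, minus strand, GRCm38.p6, RefSeq) is shown because it held 3 CCAAT boxes, read here as ATTGG on the other strand, and 1 TGACG, the core of a cAMP response element, all in capitals.
Hsd17b7: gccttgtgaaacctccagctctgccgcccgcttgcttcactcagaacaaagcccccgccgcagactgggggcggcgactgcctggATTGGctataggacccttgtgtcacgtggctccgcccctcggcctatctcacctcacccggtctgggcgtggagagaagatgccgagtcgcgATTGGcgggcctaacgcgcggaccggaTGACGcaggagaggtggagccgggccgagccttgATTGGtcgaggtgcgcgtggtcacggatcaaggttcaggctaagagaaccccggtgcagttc

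RefSeq windows were found for 7 of the 10 genes, 10 windows in all, and not for Star, Cyp17a1 and Hsd17b1. Both strands were searched for 5 motifs. AGGTCA was in 2 of the 10 windows, against 16.3% of all 32851 windows in the table. Its longer form CAAGGTCA, which contains AGGTCA and is the site preferred by the steroidogenic factor Nr5a1, was in 0 of 10 and in 1.56% of all windows. CCAAT was in 5, TATAA in 4 and TGACG in 2, against 37.4%, 24.9% and 20.8% of all windows. These counts describe letters in the windows only.

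Srd5a1, the 5-alpha-reductase that acts on progesterone and testosterone, had relative signals of 1.45, 3.35, 1.73, 2.10 and 1.83 in neoplasia, against 13.3, 14.5 and 14.3 in wildtype. The wildtype samples lay within 1.09-fold of each other. The log2 difference was -2.81 ± 0.28 (limma adjusted p = 0.000395), or 7.0-fold.

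**Figure D2:**
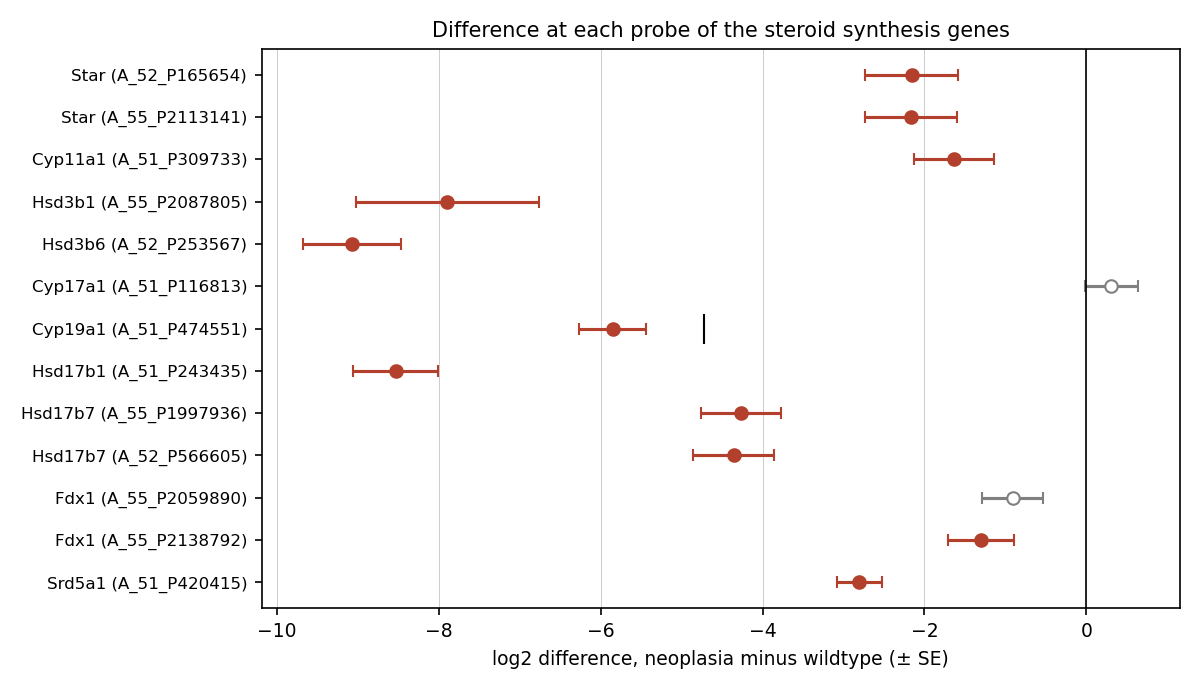
Log2 difference, neoplasia minus wildtype, ± SE for each of the 13 probes of the 10 genes, with filled points where the limma adjusted p was under 0.05 and a black tick for the bound of Cyp19a1. Hsd3b6, Hsd17b1 and Hsd3b1 lie farthest below 0, and Cyp17a1 is the only gene above it.

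The neoplasias did not keep 1 order across the genes. Neoplasia 3 had the highest level of Hsd3b1 and Hsd3b6 among the neoplasias, was the only one with Hsd17b1 well above background, and had the lowest level of Star, Cyp11a1 and Hsd17b7. Neoplasia 1 was lowest for Hsd3b1 and Srd5a1 and highest for Cyp17a1 and Hsd17b7. Cyp19a1, dim on all 5 arrays, gives no order. The SD of the log2 values was larger in neoplasia than in wildtype for 7 of the 10 genes. These include Hsd3b6 and Hsd17b1, which were well above background on only 2 and 1 of the 5 neoplasia arrays. The share of all features with a larger SD in neoplasia was not determined.

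**Figure D3:**
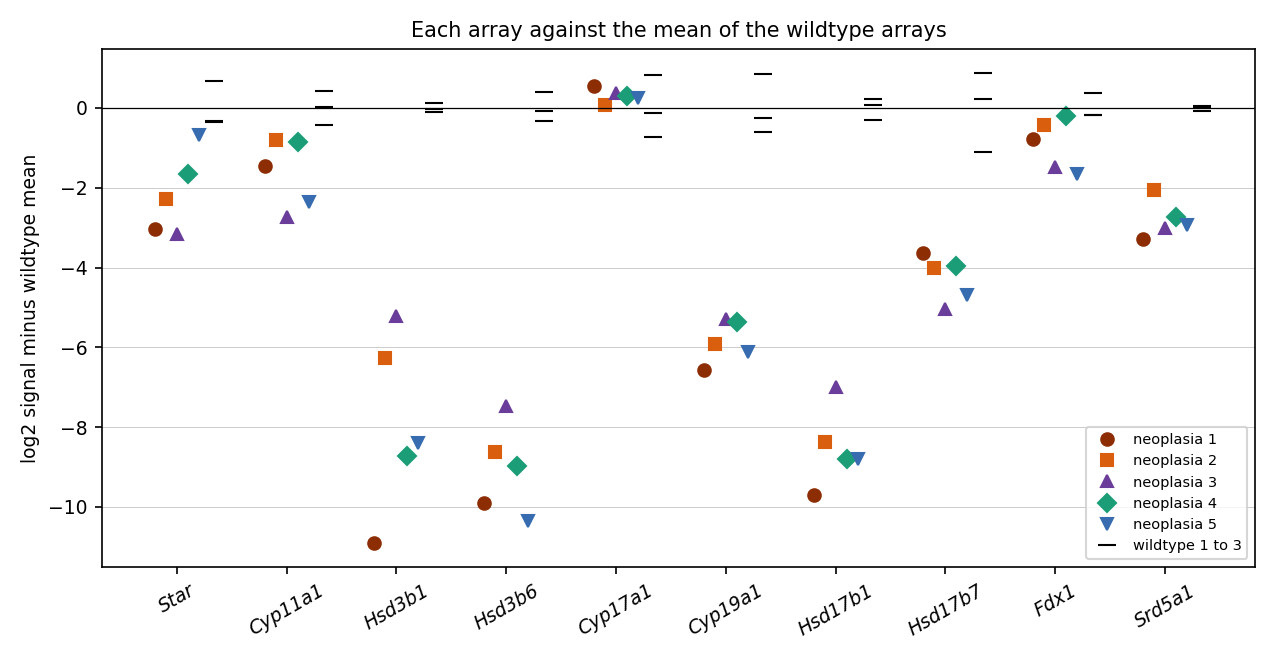
Log2 relative signal of each neoplasia array minus the wildtype mean, for the 10 genes, 1 point an array. Hsd3b1 has the widest spread, 52.0-fold between neoplasia 3 and neoplasia 1, and Cyp17a1 the narrowest, 1.38-fold.

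To compare the genes with the first enzyme of the chain, the log2 signal of Cyp11a1 was subtracted from that of each other gene on the same array, which removes the array scaling. Relative to Cyp11a1, 5 genes were lower on every neoplasia array than on every wildtype array: Hsd3b6 by a mean log2 difference of -7.43, Hsd17b1 by -6.90, Hsd3b1 by -6.26, Cyp19a1 by -4.21 and Hsd17b7 by -2.63. Of all other features, 1.51% held that pattern. The values of Cyp19a1, Hsd17b1 and Hsd3b6 are uncertain in size. Their signals were not well above background on 5, 4 and 3 of the 5 neoplasia arrays. Cyp19a1 passed the filter through the wildtype arrays alone, and Hsd17b1 and Hsd3b6 depended on the wildtype arrays to pass it. Cyp17a1 and Fdx1 were higher relative to Cyp11a1 without overlap, by 1.95 and 0.73, a pattern held by 59.6% of all features. Star, at -0.52, and Srd5a1, at -1.17, overlapped between the groups.

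Other enzymes of steroid metabolism and their redox partners moved in both directions, as did the whole array, where 13.4% of features were lower and 17% higher. Of 30 listed, 23 were tested: 5 were lower in neoplasia, 7 were higher and 11 did not pass, with a median log2 difference of 0.66. Hsd11b1, which regenerates active glucocorticoid, had 247, 95.5, 199.9, 69.3 and 61.3 in neoplasia, against 0.291, 0.767 and 0.139 in wildtype, a difference of 8.51 ± 0.65 (limma adjusted p = 0.000102). Sult1e1, the oestrogen sulfotransferase, was at 2.36, 53.1, 0.616, 0.156 and 1.84 in neoplasia and not well above background on any wildtype array. It passed the filter through the neoplasia arrays alone and so had to differ, with a bound of at least 68.2-fold higher in neoplasia. Under other processing its log2 difference was as small as 4.29. Akr1c18, which inactivates progesterone, had 0.103, 0.249, 0.403, 0.101 and 0.790 in neoplasia, against 24.3, 9.47 and 104.7 in wildtype. It was lower by 6.90 ± 0.91, and the related hydroxysteroid dehydrogenase Akr1c14 by 4.41 ± 0.66 on the log2 scale (limma adjusted p of 0.00165 and 0.00288). With slide row as a block, for neoplasia 5 alone against wildtype, the log2 differences of Akr1c18 and Akr1c14 were -5.19 and -2.70. Cyb5a, cytochrome b5, which aids the lyase reaction of Cyp17a1, was higher in neoplasia by 1.32 ± 0.31 (limma adjusted p = 0.0166). That call was lost with spike-in scaling (0.71, limma adjusted p = 0.446), in the authors' deposited values, after quantile normalization and without wildtype 1 or 2. With slide row as a block, for neoplasia 5 alone, the log2 difference was 0.55.

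Hsd17b2, which oxidises oestradiol, and Srd5a2, the second 5-alpha-reductase, were well above background on only 2 of 5 neoplasia arrays each, neoplasia 2 and 5. Both depended on the wildtype arrays to pass the filter. Their log2 differences were -4.04 ± 1.17 and -3.28 ± 1.08 (limma adjusted p of 0.0338 and 0.0495). Both calls were lost without wildtype 1, 2 or 3 and without neoplasia 1, 3 or 4, and that of Srd5a2 also without neoplasia 2. With slide row as a block, for neoplasia 5 alone against wildtype, the log2 differences were -0.66 and 0.094. In the whole list, 3 genes were lower without neoplasia 1, 3 or 4 or any 1 wildtype sample. In these settings 3.51% to 12.4% of all features were lower. Without wildtype 1 or 2, 3 were higher, where 4.65% and 5.58% of all features were higher. With spike-in scaling 3 were higher and in the authors' deposited values 4, where 2.94% and 6.06% of all features were higher.

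In the list of cholesterol import and supply, 29 of 30 genes were tested. Of these, 6 were lower in neoplasia, 4 were higher and 19 did not pass, with a median of -0.14. Over all features 13.4% were lower and 17% higher. The 6 largest differences that passed were those of the lipoprotein receptors Lrp8 (-3.00 ± 0.55) and Scarb1 (-2.20 ± 0.42), the cholesterol synthesis enzymes Dhcr7 (-2.91 ± 0.47) and Hmgcs1 (-2.55 ± 0.36), and Stard5 (2.19 ± 0.37) and Tspo (2.12 ± 0.29), which both bind cholesterol. With slide row as a block, for neoplasia 5 alone, the log2 differences were 1.47 for Stard5, 1.67 for Tspo and -3.20 for Dhcr7. Within the second row, also for neoplasia 5 alone, that of Lrp8 was -3.76. Lrp8 lost its call with the replicate number as a block (limma adjusted p = 0.0550), and Stard5 with spike-in scaling (limma adjusted p = 0.0569). Scarb1, the receptor for high-density lipoprotein, had 6.57, 13.2, 10.8, 7.79 and 4.37 in neoplasia, against 32.5, 25.3 and 59.2 in wildtype. Tspo, of the outer mitochondrial membrane, had 32.2, 45.4, 48.2, 71.8 and 32.1 in neoplasia, against 8.82, 11.2 and 10.4 in wildtype. The number of genes lower in neoplasia was 12 in the authors' deposited values and 10 after quantile normalization, settings in which 24.3% and 15.3% of all features were lower, against 13.4%. The number higher was 1 with spike-in scaling, where 2.94% of all features were higher. It was 2 without neoplasia 1 or 4 or any 1 wildtype sample, where 4.65% to 14.5% of all features were higher.

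Of 35 regulators of these genes, 33 were tested: 15 were lower in neoplasia, 2 were higher and 16 did not pass, with a median of -0.64. Of the 15, 2 passed the filter through the wildtype arrays alone. The gonadotropin receptors Lhcgr and Fshr were well above background on 0 of 5 neoplasia and 3 of 3 wildtype arrays. Like Cyp19a1, they passed the filter through the wildtype arrays alone and so had to differ. The bounds were at least 120-fold lower in neoplasia for Lhcgr and at least 33.1-fold lower for Fshr. These bounds hold for the background subtraction used here. Under other processing the log2 differences were as small in size as -4.52 for Lhcgr and -3.12 for Fshr. Nr0b1, a repressor of Nr5a1, was well above background on only 1 of 5 neoplasia arrays and depended on the wildtype arrays to pass the filter. Its log2 difference of -5.24 ± 0.47 rests on dim signals and was -2.06 with normexp background correction. Lower too were the prolactin receptor Prlr by 4.22 ± 0.88, the protein kinase A subunit Prkar2b by 3.91 ± 0.55 and the oestrogen receptor Esr1 by 3.36 ± 0.58. With slide row as a block, for neoplasia 5 alone against wildtype, the log2 differences were -1.78 for Esr1 and -2.39 for Prkar2b. Nr5a1, which switches on many steroid synthesis genes, had 10.7, 10.3, 10.2, 10.2 and 6.89 in neoplasia, against 16.5, 15.3 and 21.9 in wildtype, a difference of -0.89 ± 0.22 (limma adjusted p = 0.0218). That call was lost without wildtype 1, 2 or 3. Nr5a2, its relative in granulosa and luteal cells, had 0.120, 35.7, 5.33, 12.0 and 2.86 in neoplasia, against 27.2, 31.1 and 33.9 in wildtype. Neoplasia 2 was above every wildtype sample, and the log2 difference of -3.01 ± 1.57 did not pass (limma adjusted p = 0.172). The number of regulators lower in neoplasia was 5, 7 and 8 without wildtype 1, 2 and 3. In these settings 3.51%, 4.23% and 5.75% of all features were lower, against 13.4%. The Prlr call was lost without wildtype 1. The number higher was 4 without neoplasia 5, where 22.9% of all features were higher. It was 1 without neoplasia 1, 2 or 4 or any 1 wildtype sample, where 4.65% to 16.3% of all features were higher.

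**Figure D4:**
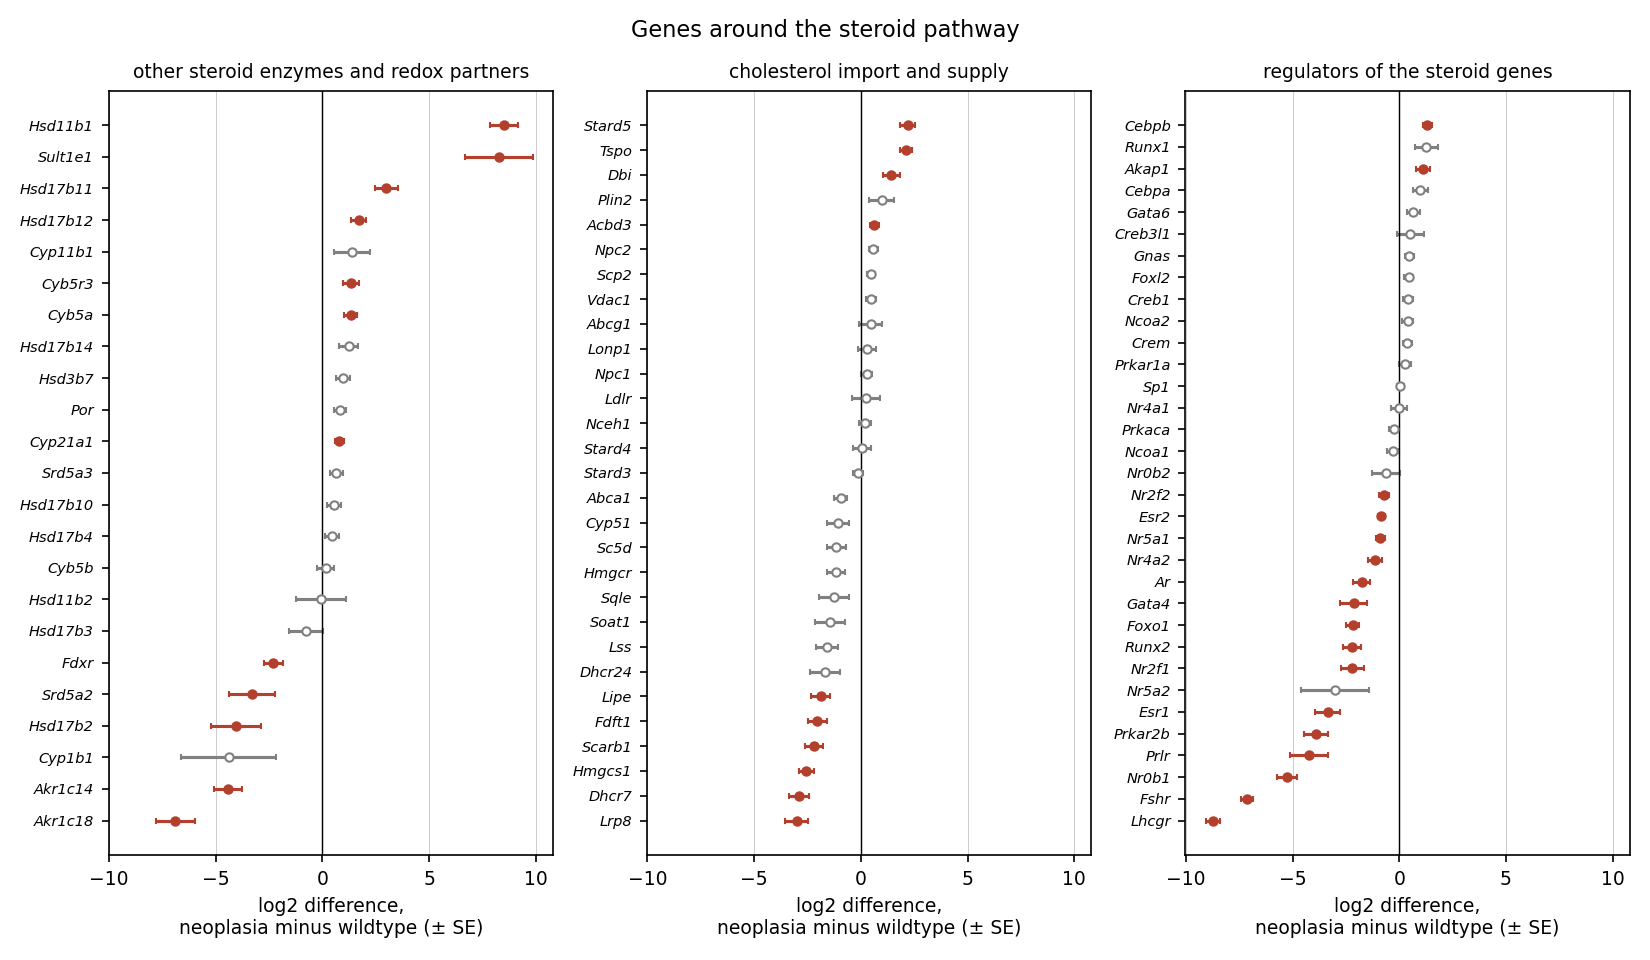
Log2 difference, neoplasia minus wildtype, ± SE for the genes of 3 related lists, 1 panel a list, with filled points where the limma adjusted p was under 0.05. In the regulators 15 of 33 tested genes were lower, and in the other steroid enzymes 7 of 23 were higher. Over all features 13.4% were lower and 17% higher.

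Markers of ovarian and other cells differed between the groups beside these genes. Leaving out the 10 genes, 9 of 13 granulosa cell markers, 8 of 11 luteal markers, 6 of 8 theca and interstitial markers and 12 of 13 oocyte markers tested were lower in neoplasia. Over all features 13.4% were lower. The summed relative signal of the oocyte markers was 1.59 to 3.91 in neoplasia and 35.1 to 44.6 in wildtype, and Zp1, Zp2, Bmp15, Figla, Nobox, Padi6 and Zar1 were not well above background on any neoplasia array. These 7 passed the filter through the wildtype arrays alone and had to differ, as did 3 of the granulosa, 3 of the luteal and 1 of the theca markers. The granulosa markers summed to 76.6 to 133 in neoplasia and 202 to 291 in wildtype, with Amh, Fshr and Nap1l5 not well above background on any neoplasia array. Kitl was higher in neoplasia by 1.15 ± 0.32 (limma adjusted p = 0.0313), and Foxl2, at 0.43 ± 0.19, Fst, at 1.06 ± 0.46, and Nr5a2 did not pass. Sums over probes follow the brightest of them. Luteal markers summed to 63.6 to 191 in neoplasia and 139 to 440.1 in wildtype. Of these sums Parm1, the 1 luteal marker that was higher, by 3.04 ± 0.48, made up 31.5 to 147 in neoplasia and 6.92 to 11.8 in wildtype. Theca markers summed to 364 to 1013 in neoplasia and 393 to 435 in wildtype, although 6 of 8 were lower in neoplasia. Aldh1a1 made up 239 to 700 of these sums in neoplasia and 174 to 212 in wildtype. Fabp3 made up 52.2 to 300 in neoplasia and 11.1 to 14.5 in wildtype. Macrophage markers were higher in 9 of 11, with sums of 130 to 253 in neoplasia and 50.4 to 61.8 in wildtype, and red cell genes in 6 of 6, with sums of 405 to 1934 and 9.72 to 28.8. Epithelial markers summed to 182 to 773 in neoplasia and 15.0 to 74.3 in wildtype, with 2 of 12 higher and 3 lower. Krt18 alone made up 130 to 508 in neoplasia and 7.78 to 47.6 in wildtype. The number of epithelial markers lower was 0 without wildtype 1 or 2 and 5 without neoplasia 5. Stromal and smooth muscle markers summed to 34.8 to 732 in neoplasia and 351 to 643 in wildtype; neoplasia 5, which had the highest Star, also had the highest of these sums among the neoplasias. Without any 1 wildtype sample, oocyte markers lower in neoplasia were 5, since those 7 no longer passed the filter, and macrophage markers higher were 6; that macrophage count was 2 with spike-in scaling and 3 in the authors' deposited values, where 2.94% and 6.06% of all features were higher, against 17%. Counting the 10 genes too, granulosa, luteal and theca markers lower in neoplasia were 11, 11 and 8, and 5 to 6, 4 to 6 and 3 without any 1 wildtype sample. Without any 1 wildtype sample 3.51% to 5.75% of all features were lower and 4.65% to 7.12% higher. Stromal markers lower in neoplasia were 1 of 12, but 8 without neoplasia 5 and 9 with spike-in scaling. In the last 2 settings 17% and 16.7% of all features were lower. The part of these markers in the differences of the 10 genes was not tested.

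Leaving out the 10 genes, 3 of 7 adrenal cortex markers tested were higher and 0 lower, where 17% and 13.4% of all features were. Hsd3b1, 1 of the 10 genes and also on this list, was lower. The sums were 23.3 to 102 in neoplasia and 17.0 to 29.8 in wildtype. Mrap alone made up 19.0 to 98.5 of these in neoplasia and 13.1 to 25.4 in wildtype. Cyp11b2 was too dim to be tested. None of the 3 passed as higher without wildtype 1, 2 or 3 or in the authors' deposited values. In these settings 4.65% to 7.12% of all features were higher. Of decidual and placental markers other than Hsd3b6, 3 of 5 were higher, with sums of 22.0 to 281 in neoplasia and 1.95 to 2.48 in wildtype. Of endothelial markers, 3 of 10 were higher, but 5 without neoplasia 1 and 1 without any 1 wildtype sample. In the last settings 14.5% and 4.65% to 7.12% of all features were higher. Of the Leydig cell markers left after removing the 10 genes, 2 were tested and 1, Lhcgr, was lower. Through the neoplasia arrays alone, 1 of the red cell, 1 of the adrenal and 2 of the decidual and placental markers passed the filter and had to differ.

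**Figure D5:**
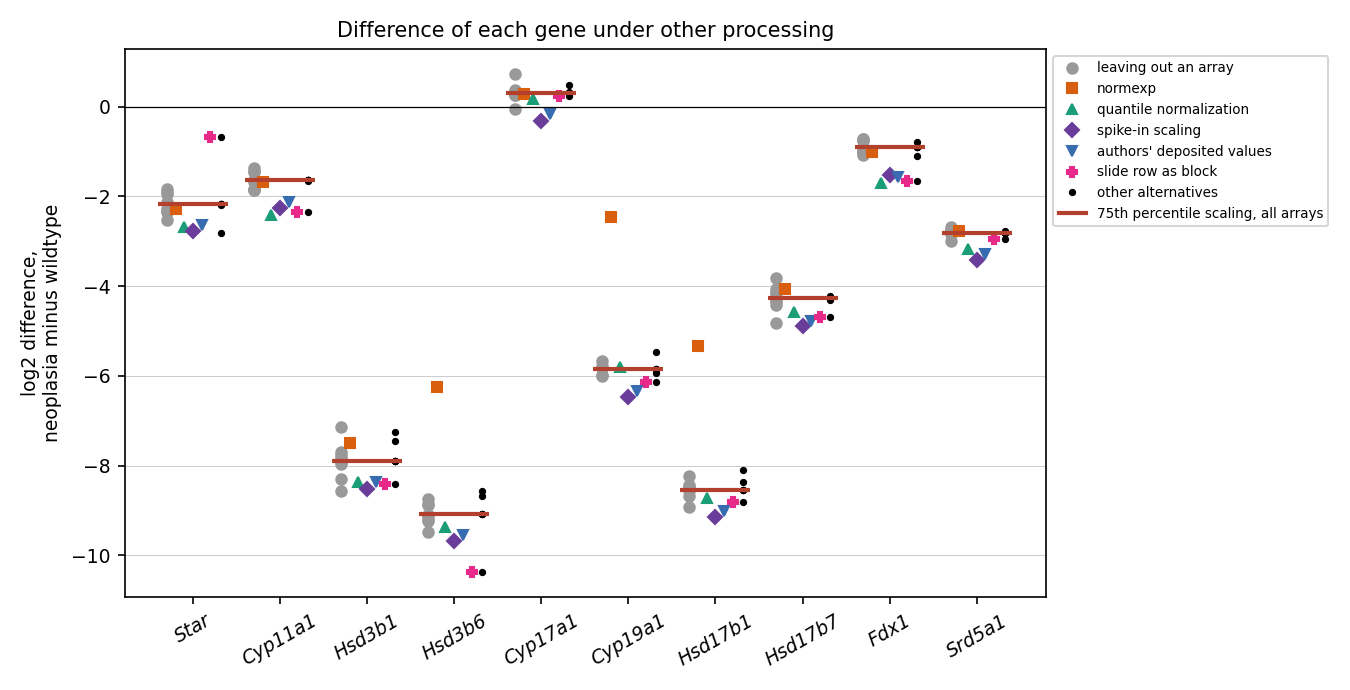
Log2 difference, neoplasia minus wildtype, of the 10 genes under each alternative processing and with each array left out. Hsd3b1, Hsd3b6, Cyp19a1, Hsd17b1, Hsd17b7 and Srd5a1 stay below 0 under each alternative that measured them, while Cyp17a1 lies on both sides of 0.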

How the data were processed

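Total RNA was measured on 8 one-colour arrays. Per the file headers, Feature Extraction 11.0.1.1 made the deposited intensity values, background-subtracted per spot, with a design grid on mm9; the submitters' processing notes name Partek without a role. The authors' deposited value table is on a log2 scale and matched, for all 37932 rows within 0.001, the mean over spots of a systematic name, neither scaled nor centred. Its column medians were 4.80 to 5.37 in neoplasia and 5.75 to 6.07 in wildtype. Depth has no meaning for arrays; their number limits precision.

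From the intensities, control spots and outlier flags were left out, spots of a probe averaged, log2 taken and each array's 75th percentile subtracted. Probes well above background on at least 3 of the arrays were kept, and genes were named through RefSeq symbols (26582 of 55681 probes had 1 symbol). The probe with the highest mean stood for its gene. The test was limma 3.58.1 (R 4.3.3), checked on simulated data. All 10 genes were named whatever their result, with the 6 largest called differences of each related list. Of the 3 genes most like each in pattern only the first was named, with a second for Hsd3b6 and Hsd17b7 alone. Fdxr, Cyb5a, Nr5a1 and Nr5a2 were named after their values were seen. The genes and lists were chosen with earlier results of these data known. Alternatives covered background correction, scaling, filters, probe choice, limma settings, blocks, the threshold and left-out arrays. Sample titles numbered the replicates, although another label calls each the first.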

Additional observations from a re-analysis of the deposited data

How the results depend on the processing

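The number of steroid synthesis genes lower in neoplasia was 8; it was 5 when only probes well above background on all 8 arrays were kept, where 7 of the 10 genes were measured and 9.81% of all features were lower. With each array left out it ranged from 5 to 8, while 3.51% to 17% of all features were lower. It was 5 without wildtype 1, 2 or 3, where Cyp19a1 no longer passed the filter and Star and Cyp11a1 lost their calls and 3.51%, 4.23% and 5.75% of all features were lower. Under the other alternatives, apart from the fits by slide row, it was 6 to 9. The share of all features lower ran from 5.45% at the threshold of 0.01 to 24.3% in the authors' deposited values. The number higher was 0 in all of these alternatives and with each array left out. Cyp17a1 changed sign with spike-in scaling (-0.31), in the authors' deposited values (-0.17) and without wildtype 2 (-0.051). It ranged from -0.051 to 0.73 over the arrays left out. The median over all features, given below, also fell in the first 2 of these settings, and the cause was not tested. Srd5a2 was at 0.094 with slide row as a block and within the second row, which both compared neoplasia 5 alone with wildtype. Fdx1 passed in the authors' deposited values (-1.58), after quantile normalization (-1.70) and with array weights (-0.79). Within the second row, for neoplasia 5 alone, its log2 difference was -1.65. With normexp background correction the log2 differences of the dim probes were smaller in size, at -6.24 for Hsd3b6, -5.32 for Hsd17b1 and -2.46 for Cyp19a1. The median over all features was 0.14, but -0.48 with spike-in scaling and -0.34 in the authors' deposited values, where calls were higher in 15.0% and 19.9% of cases against 56.0% with the 75th percentile. The same replicate numbers did not pair the samples: deviations of equal numbers correlated at -0.05, -0.03 and -0.00. With the replicate number as a block 7 genes were lower, Cyp11a1 losing its call (limma adjusted p = 0.109), and 10.6% of all features were lower.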

Other observations

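The genes whose log2 values followed the steroid synthesis genes most closely over the 8 arrays were read out as a description. The arrays of a correlation share the group difference and the array scaling, so it carries no test. Hsd3b6 was most like Hao2, a peroxisomal oxidase (Pearson r = 0.997), and like Hsd17b1 (r = 0.995). Hsd17b1 was most like Zp3, an egg coat protein (r = 0.996). Hsd17b7 was like Slc36a3 (r = 0.998) and like Hmgcs1, which acts early in cholesterol synthesis (r = 0.990). Fdx1 was most like Tm7sf2, a reductase of cholesterol synthesis (r = 0.984). Star was most like Dvl1 (r = 0.987), Cyp11a1 most like Baiap3 (r = 0.983), Hsd3b1 most like Tmem201 (r = 0.992), Srd5a1 most like Bpifb4 (r = 0.996) and Cyp17a1 most like Atrn (r = 0.957). Cyp19a1 was most like Tln2 (r = 0.997), but its neoplasia values were not well above background, nor were those of Hsd17b1 on 4 and of Hsd3b6 on 3 of the 5 neoplasia arrays.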
